A study of Mus musculus with 5 samples.

Results

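The genes described are 10 serotonin receptor genes, Htr1a, Htr1b, Htr1d, Htr1f, Htr2a, Htr2b, Htr4, Htr5a, Htr6 and Htr7, of 21031 protein-coding genes that have a curated transcript in RefSeq. They were taken by symbol from the authors' lists of enriched regions, and a gene with no region in a list is described as having no listed region there. The nuclei came from striata of C57BL/6 mice aged 8 weeks and were labelled medium spiny neuron. They were sorted for NeuN, a nuclear protein of most neurons, so that striatal interneurons can also be among them. Chromatin was immunoprecipitated with antibodies to H3K4me3, H3K27me3, H3K27ac and RNA polymerase II (Pol II), with 1 library for each of the 4 antibodies and 1 input library. No genotype or treatment was named in the labels, nor was the number of mice per library, and no comparison has a replicate check. In sorted bulk nuclei, fewer cells carrying a mark and less of the mark per cell cannot be told apart, nor can 2 marks on 1 allele and 2 marks in different cells.

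Serotonin released in the striatum comes from axons of the raphe nuclei, and its receptors are, with the exception of the ion channel HTR3, coupled to heterotrimeric G proteins. Htr1 and Htr5 receptors couple to Gi and Go and lower cyclic AMP, Htr2 receptors couple to Gq and activate phospholipase C, and Htr4, Htr6 and Htr7 couple to Gs and raise cyclic AMP. H3K4me3 marks promoters, H3K27ac marks active promoters and enhancers, H3K27me3 is the mark left by Polycomb repressive complex 2, and Pol II transcribes messenger RNA.

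The lists held 13142 H3K4me3, 8219 H3K27me3, 9781 H3K27ac and 7799 Pol II regions. Each region carries a score over input given by the authors, whose scale is not given in the sources used here, and the lowest score in each list was 2.0. Scores are therefore given with their percentile within their own list, where 100 is the highest, and are never set against scores of another antibody. Read depth is unknown. The labelled cell type was checked against fixed markers. All 6 neuronal and medium spiny neuron markers had H3K4me3, H3K27ac and Pol II regions and 0 had H3K27me3. Of 10 glial and vascular markers, H3K4me3 was listed for 6, H3K27me3 for 7, H3K27ac for 1 and Pol II for 1. The shares of all coding genes were 68.4%, 42.5%, 51.5% and 41.7% in that order, so H3K4me3 at 6 of 10 was near its share. The exception in both active lists was Mbp, a myelin gene, with an H3K27ac score of 7.01 and a Pol II score of 2.24.

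The 10 genes differed widely in chromatin state. Htr1b and Htr6 had the full active set of H3K4me3, H3K27ac and Pol II with no H3K27me3. Htr1d had H3K4me3 and H3K27ac alone. Htr1f, Htr4, Htr5a and Htr7 had H3K4me3, H3K27me3 and H3K27ac without Pol II, and Htr2a had regions of all 4 antibodies. Htr1a had H3K4me3 and H3K27me3 alone, and Htr2b had no listed region of any antibody.

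**Figure D1:**
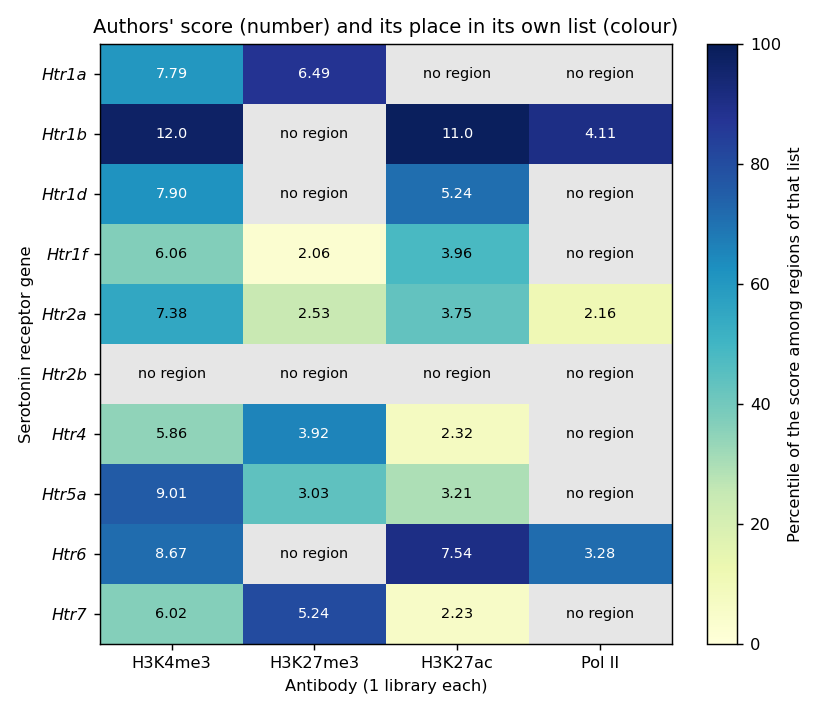
Grid of the 10 serotonin receptor genes (vertical axis) by antibody (horizontal axis, 1 library each). The number in a cell is the authors' score, the colour its percentile among the regions of that list, and grey cells have no listed region. Htr1b has the highest score of the 10 genes for H3K4me3 (12.0), H3K27ac (11.0) and Pol II (4.11), and Htr1a the highest for H3K27me3 (6.49).

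In counts, 9 of the 10 genes had an H3K4me3 region, against 68.4% of all coding genes. H3K27me3 was listed for 6 of the 10, against 42.5%, and H3K27ac for 8 of the 10, against 51.5%. Pol II was listed for 3 of the 10, against 41.7% of coding genes. Of pairs and sets, H3K4me3 and H3K27me3 were both listed for 6 of the 10 genes, against 24.2% of coding genes. H3K4me3, H3K27ac and Pol II were all listed for 3 of the 10, against 40.7%.

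Taken as a ratio to the background, the set with H3K27me3 and H3K27ac but no Pol II stood highest. H3K4me3, H3K27me3 and H3K27ac without Pol II was found at 4 of the 10 genes (Htr1f, Htr4, Htr5a and Htr7), against 4.40% of coding genes. All 4 antibodies were listed for 1 of the 10 (Htr2a), against 5.93%. The active set without H3K27me3 was found at 2 of the 10 (Htr1b and Htr6), against 34.8%. The pair of H3K4me3 and H3K27me3 stood alone at 1 (Htr1a), against 13.4%, and the pair of H3K4me3 and H3K27ac stood alone at 1 (Htr1d), against 6.24%. No region of any antibody was listed for 1 of the 10 (Htr2b), against 13.3% of coding genes. The count of 4 rests on regions of low score: in the upper 50% of each list, H3K27me3 was left at Htr1a, Htr4 and Htr7 and H3K27ac at Htr1b, Htr1d and Htr6, with no gene in both. At that setting H3K27ac was left at 5493 of 21031 coding genes, and the share for H3K27me3 was not computed. These shares carry no test, since each antibody has 1 library and the genes were chosen with results of these data known.

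**Figure D2:**
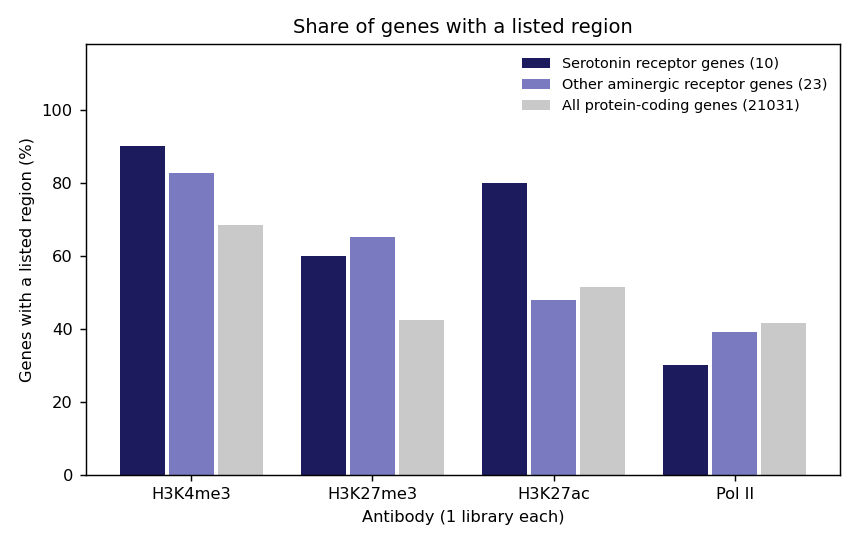
Percent of genes with a listed region, on the vertical axis, for each antibody on the horizontal axis. The bars are, from left to right, the 10 serotonin receptor genes, the 23 dopamine, adrenergic, histamine and muscarinic receptor genes and all 21031 coding genes. Serotonin receptor genes have H3K27ac at 8 of 10 genes and Pol II at 3 of 10.

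The state is set beside promoter sequence for 6 genes that span the range: Htr1b and Htr6 with the active set, Htr5a and Htr7 with H3K4me3, H3K27me3 and H3K27ac, Htr1a with H3K4me3 and H3K27me3, and Htr2b with no region. The windows are RefSeq promoters of build GRCm38.p6, 5′ to 3′ along the gene, from 250 bases before the annotated start to 50 after it, and capitals mark CpG sites. They are at chr9:81633783-81634082 (minus strand) for Htr1b, chr4:139075521-139075820 (minus) for the upstream window of Htr6, chr5:27841697-27841996 (plus) for Htr5a, chr19:36057311-36057610 (minus) for Htr7, chr13:105443443-105443742 (plus) for Htr1a and chr1:86111931-86112230 (minus) for Htr2b.
Htr1b: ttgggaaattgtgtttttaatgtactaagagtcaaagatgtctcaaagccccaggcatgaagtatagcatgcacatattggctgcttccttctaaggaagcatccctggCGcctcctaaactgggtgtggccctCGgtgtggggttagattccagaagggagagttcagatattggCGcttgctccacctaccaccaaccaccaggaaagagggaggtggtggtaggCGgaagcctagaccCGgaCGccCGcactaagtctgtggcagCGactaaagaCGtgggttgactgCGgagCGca
Htr6: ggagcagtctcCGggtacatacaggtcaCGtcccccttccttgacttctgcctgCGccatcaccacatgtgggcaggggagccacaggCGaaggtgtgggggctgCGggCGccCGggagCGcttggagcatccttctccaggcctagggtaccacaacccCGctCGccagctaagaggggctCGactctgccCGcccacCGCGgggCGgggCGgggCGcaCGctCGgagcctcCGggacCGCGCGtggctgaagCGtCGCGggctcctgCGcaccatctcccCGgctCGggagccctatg
Htr5a: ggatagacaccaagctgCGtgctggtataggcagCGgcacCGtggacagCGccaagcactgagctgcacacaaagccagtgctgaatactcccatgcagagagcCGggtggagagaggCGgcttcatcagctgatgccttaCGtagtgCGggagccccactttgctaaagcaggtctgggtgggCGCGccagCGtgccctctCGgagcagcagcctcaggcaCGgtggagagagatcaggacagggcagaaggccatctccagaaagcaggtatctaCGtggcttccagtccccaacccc
Htr7: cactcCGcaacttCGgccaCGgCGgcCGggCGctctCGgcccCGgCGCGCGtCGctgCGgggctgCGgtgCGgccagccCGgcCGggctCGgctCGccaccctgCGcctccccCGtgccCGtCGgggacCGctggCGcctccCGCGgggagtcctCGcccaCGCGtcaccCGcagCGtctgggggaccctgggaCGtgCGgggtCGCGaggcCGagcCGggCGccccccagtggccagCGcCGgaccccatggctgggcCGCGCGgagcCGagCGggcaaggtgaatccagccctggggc
Htr1a: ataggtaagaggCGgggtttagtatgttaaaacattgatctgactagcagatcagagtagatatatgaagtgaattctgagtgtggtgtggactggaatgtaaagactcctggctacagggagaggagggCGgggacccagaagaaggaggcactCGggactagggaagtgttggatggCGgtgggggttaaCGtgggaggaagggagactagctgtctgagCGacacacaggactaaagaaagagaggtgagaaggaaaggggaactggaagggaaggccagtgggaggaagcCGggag
Htr2b: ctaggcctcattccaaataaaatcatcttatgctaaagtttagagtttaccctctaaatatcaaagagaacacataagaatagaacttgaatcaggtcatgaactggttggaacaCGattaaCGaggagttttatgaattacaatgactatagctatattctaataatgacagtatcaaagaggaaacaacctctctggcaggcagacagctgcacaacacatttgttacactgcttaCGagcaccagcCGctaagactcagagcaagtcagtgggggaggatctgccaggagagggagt

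Promoter CpG content varied among genes of the same chromatin state. The Htr1b window held 11 CpG sites in 53.3% G+C and a ratio of observed to expected CpG of 0.52, and the Htr1a window held 7 in 52.3% and a ratio of 0.48. Htr7, with H3K27me3 and no Pol II, had the highest ratio of the 11 windows, 0.94, with 46 CpG sites in 81.0% G+C, at percentile 86.1 of all promoter windows. The upstream window of the active Htr6 came next, with a ratio of 0.77 and 29 CpG sites, while its downstream window had 0.47 with 10. Htr5a had 14 CpG sites and a ratio of 0.5. Htr2b had 4 CpG sites, 41.0% G+C and a ratio of 0.32, at percentile 31.9.

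Of the other windows, Htr1f had a ratio of 0.63, Htr2a of 0.3, and the 2 Htr1d windows of 0.36 and 0.69. In all, 9 genes had 11 windows, and 4 of these 11 had a ratio of at least 0.6, against 49.1% of the 20488 windows of coding genes, whose median was 0.588. Over the coding genes whose highest window stayed below 0.6, H3K4me3 was listed for 37.7%, H3K27ac for 19.5% and Pol II for 12.7%. The 5 serotonin receptor genes of that kind were Htr1a, Htr1b, Htr2a, Htr2b and Htr5a, with H3K4me3 at 4, H3K27ac at 3 and Pol II at 2. Of the 4 genes at or above 0.6 (Htr1d, Htr1f, Htr6 and Htr7), all 4 had H3K4me3 and H3K27ac and 1, Htr6, had Pol II. The shares of coding genes at or above 0.6 were 95.7%, 81.3% and 69.0% in that order. In the 250 upstream bases alone, 3 of the 11 windows reached 0.6, with Htr1f at 0.48. The share of all windows was not computed for that setting.

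Short motifs were searched on both strands of the same windows as a description. The GC box GGGCGG was in 6 of the 11 windows (Htr1a, both of Htr1d, Htr1f, Htr2a and the upstream one of Htr6), against 47.6% of all windows. TATAAA was in 0 of the 11, against 12.4%, and TGACG, the core of the cyclic AMP response element, was in 1, Htr7, against 24.2%. The motifs share no stretch by which one match would imply another. Windows and listed regions are on different builds, so whether a window lies inside a region was not examined.

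**Figure D3:**
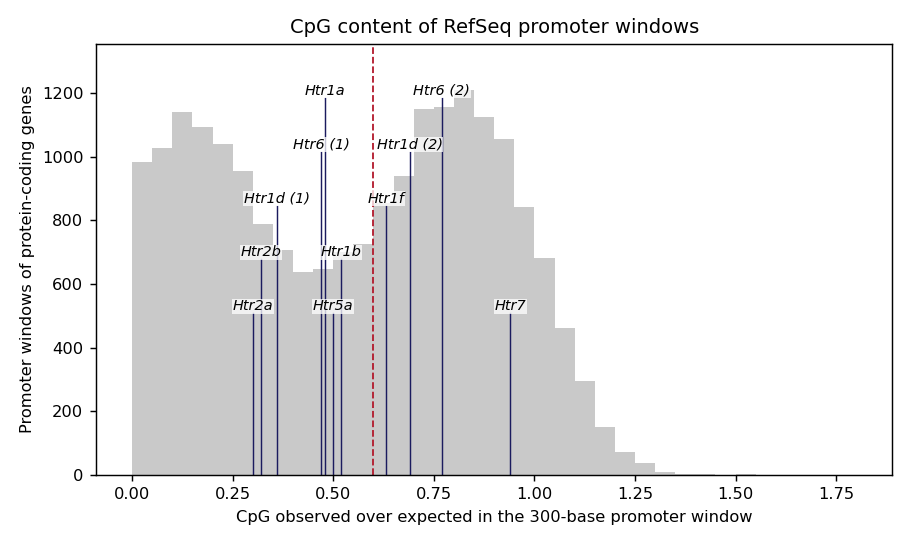
Histogram of the ratio of observed to expected CpG (horizontal axis) over promoter windows of coding genes (vertical axis: number of windows). Vertical lines mark the 11 windows of serotonin receptor genes, with the window's number in brackets where a gene has 2 and line heights set only to keep the names apart, and the dashed line is a ratio of 0.6. Htr7 lies highest at 0.94 and Htr2a lowest at 0.3.

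Among the Gi and Go coupled receptors, Htr1b had the highest-scored active regions of the 10 genes. HTR1B is a terminal receptor, found on serotonin axons and on the axons of medium spiny neurons, where it lowers transmitter release. Its H3K4me3 region (mm9 chr9:81518801-81531100) scored 12.0, at percentile 96.9 and rank 407 of its list. The H3K27ac region scored 11.0, at percentile 98.6 and rank 140, and the Pol II region scored 4.11, at percentile 90.5. All 3 regions were wide: 12.3 kb for H3K4me3, 10.5 kb for H3K27ac and 11.4 kb for Pol II, at width percentiles 91.1, 97.6 and 98.1 of their lists. The Pol II region covered 90.2% of the H3K4me3 region and ran 0.3 kb past its downstream edge. No H3K27me3 region was listed nearer than 1507 kb from the H3K4me3 region, and the nearest other listed H3K4me3 region was 224 kb away. The list names state a window of 3 kb around the start site. Regions far from start sites may thus be missing from these and the later distances to neighbouring regions.

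Htr1d, a close relative of Htr1b and like it a target of the triptans, had the H3K4me3 and H3K27ac regions without Pol II. Its H3K4me3 region (mm9 chr4:135977501-135983500) scored 7.90, at percentile 61.7, over 6.00 kb. The H3K27ac region scored 5.24, at percentile 71.0, and covered 90.0% of the H3K4me3 region. Both scores lay below those of Htr1b and above the medians of their lists, 7.05 and 4.03. The nearest H3K27me3 region was 168 kb away, listed for Asap3 and Tcea3.

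Htr1a was the one gene with H3K4me3 and H3K27me3 and nothing else. HTR1A is the autoreceptor on serotonin neurons and a receptor of hippocampal and cortical neurons. Its H3K4me3 region (mm9 chr13:106231501-106237800) scored 7.79, at percentile 60.3, which is close to the scores of Htr1d (7.90) and Htr2a (7.38). Its H3K27me3 score of 6.49 was the highest of the 10 genes, at percentile 87.6 and rank 1024. The H3K27me3 region was 11.6 kb wide, covered the whole H3K4me3 region, and ran 0.2 kb past it upstream and 5.1 kb downstream.

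Htr1f, the receptor targeted by the migraine drug lasmiditan, had 3 marks with scores below the medians of their lists, for H3K27ac only just. In mm9 the H3K4me3 region lay at chr16:65102401-65108200 and scored 6.06, at percentile 37.0, and its H3K27ac region scored 3.96, at percentile 48.1. The H3K27me3 score was 2.06, at percentile 3.02, just inside the lowest listed score of 2.0. The H3K27me3 region was the narrowest of the 6 listed for the 10 genes at 4.40 kb and covered 75.9% of the H3K4me3 region.

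Htr5a differed from these in where its H3K27me3 lay. HTR5A is a Gi and Go coupled receptor of forebrain neurons. Its H3K4me3 region (mm9 chr5:28165901-28173100) scored 9.01, at percentile 75.6, the highest after Htr1b, and the H3K27ac region scored 3.21, at percentile 29.5. The H3K27me3 region (mm9 chr5:28146001-28166700) scored 3.03 over 20.7 kb, reached 19.9 kb upstream of the H3K4me3 region and overlapped it by 0.8 kb, which is 11.1% of the H3K4me3 region. The 2 regions thus lay side by side, with H3K27me3 upstream and the rest of the H3K4me3 region free of it.

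Of the Gq coupled receptors, Htr2a had regions of all 4 antibodies and Htr2b of none. HTR2A is the receptor through which classical psychedelics act in the cortex. The H3K4me3 region of Htr2a (mm9 chr14:75038401-75047700) scored 7.38, at percentile 54.7, over 9.30 kb. The H3K27ac score was 3.75, at percentile 43.2, the H3K27me3 score 2.53, at percentile 24.4, and the Pol II score 2.16, at percentile 11.0 and close to the lowest listed score. H3K27me3 covered 52.7% of the H3K4me3 region and ran past it upstream, while Pol II covered 35.5% of it.

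Htr2b, known for its role in heart valves and blood vessels, had no listed region of H3K4me3, H3K27me3, H3K27ac or Pol II. In the GRCm38.p6 gene table it lies inside Psmd1, a proteasome subunit gene, which had an H3K4me3 score of 9.01, an H3K27ac score of 5.10 and a Pol II score of 2.36, with no H3K27me3 region. The files do not list the transcripts that were searched, so Htr2b is described as having no listed region, not as unmarked.

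**Figure D4:**
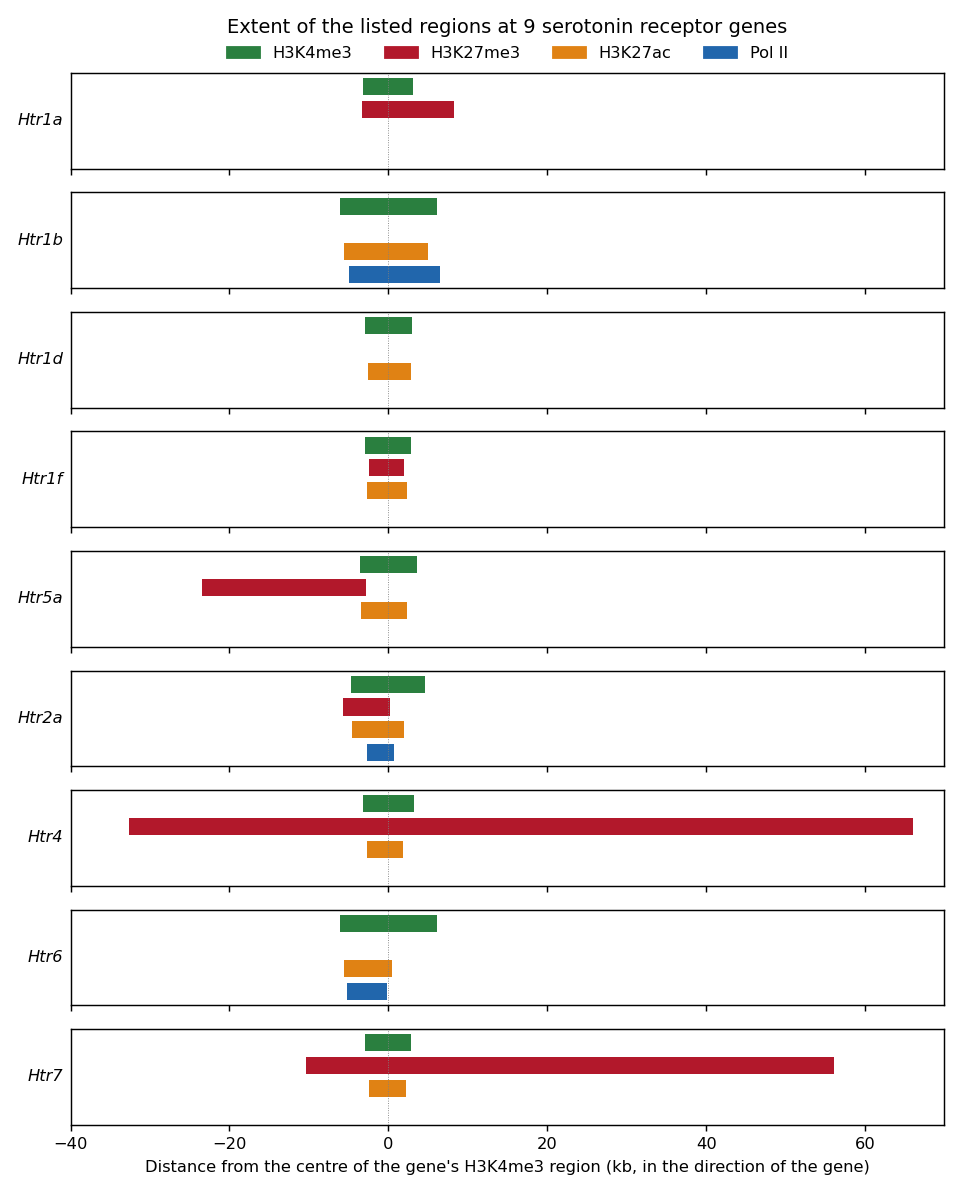
Listed regions of the 9 serotonin receptor genes that have any, drawn in the direction of the gene as distance in kb from the centre of its H3K4me3 region (horizontal axis), with 1 coloured bar for each antibody that has a region. H3K27me3 runs far past both sides of the H3K4me3 region at Htr4 and Htr7, ends just inside its upstream edge at Htr5a, and is not listed at Htr1b, Htr1d and Htr6.

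The Gs coupled receptors ranged from active to broadly H3K27me3-covered. Htr6 encodes a receptor enriched in striatal medium spiny neurons. The H3K4me3 region of Htr6 (mm9 chr4:138622401-138634600) scored 8.67, at percentile 71.4, and was 12.2 kb wide, at width percentile 91.0. Its H3K27ac score was 7.54, at percentile 90.3, and its Pol II score 3.28, at percentile 71.3. H3K27ac covered 50% of the H3K4me3 region and Pol II 41.0%, against 85.4% and 90.2% at Htr1b. Both ended before the downstream edge of the H3K4me3 region, by 5.6 kb and 6.3 kb. At Htr1b, H3K27ac ended 1.2 kb before that edge and Pol II ran 0.3 kb past it. No H3K27me3 region was listed for Htr6, but one lay 9.40 kb from its H3K4me3 region, listed for the neighbouring Nbl1 with a score of 5.70.

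Htr4 and Htr7 lay under the widest H3K27me3 regions of the 10 genes. HTR4 raises cyclic AMP in striatal and hippocampal neurons, and HTR7 is best known from thalamus and hypothalamus. The Htr4 region (mm9 chr18:62451701-62550300) was 98.6 kb wide, at width percentile 96.1, and ran past the H3K4me3 region by 29.4 kb upstream and 62.8 kb downstream, with a score of 3.92 at percentile 65.3. The Htr7 region (mm9 chr19:36075701-36142200) was 66.5 kb wide, at width percentile 92.5, and ran past by 7.5 kb upstream and 53.2 kb downstream, with a score of 5.24 at percentile 80.1.

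Inside these wide regions both genes had much narrower H3K4me3 and H3K27ac regions, with scores below the medians of their lists. The H3K4me3 scores were 5.86 for Htr4, at percentile 34.7, and 6.02 for Htr7, at percentile 36.6. The H3K27ac scores were 2.32 for Htr4, at percentile 7.52, and 2.23 for Htr7, at percentile 5.55, both near the lowest listed score. H3K27ac covered 71.9% of the H3K4me3 region at Htr4 and 81.0% at Htr7. No Pol II region was listed for either gene.

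Across the 10 genes, 3 of the 6 genes with both marks had the H3K4me3 region wholly covered by H3K27me3 (Htr1a, Htr4 and Htr7) and 3 had it partly covered (Htr1f, Htr2a and Htr5a). Of the 5091 coding genes with both, 45.1% were wholly covered, 47.3% partly, and 7.60% had regions that did not overlap. Their split was thus near that of coding genes. Their median H3K27me3 width was 16.1 kb, against 15.8 kb over coding genes with a region.

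Most of the acetylated genes had no Pol II region. Of the 8 genes with H3K27ac, 3 had a Pol II region (Htr1b, Htr2a and Htr6), against 79.2% of the 10822 coding genes with H3K27ac. The count was also divided by H3K27ac score at the list's median, a division chosen after the values were seen. Of the 3 serotonin receptor genes with an H3K27ac score at or above the list's median, 2 had Pol II, against 96.5% of 5493 coding genes. Of the 5 below the median, 1 had Pol II, against 61.3% of 5329 coding genes, and of 1596 coding genes below the median that also had H3K27me3, 44.9% had Pol II. The 5 serotonin receptor genes below the median were the same 5 that had H3K27me3, so the 2 traits cannot be told apart here. A relation of either to Pol II was not tested.

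H3K27ac was also common among the genes with H3K27me3. Of the 6 genes with H3K4me3 and H3K27me3, 5 had H3K27ac, against 42.7% of the 5091 coding genes with both, and 1 had Pol II, against 26.4%. Seen from the other side, 5 of the 8 acetylated genes had H3K27me3, against 20.2% of acetylated coding genes. The exception among the 6 was Htr1a, whose H3K27me3 score was the highest (6.49). Htr7, with the next highest (5.24), had an H3K27ac region. The H3K27ac scores of Htr7 (2.23) and Htr4 (2.32) were close to the lowest listed score of 2.0.

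H3K27ac scores were lower at the genes with H3K27me3. The 5 genes with H3K27me3 had H3K27ac scores of 3.96 (Htr1f), 3.75 (Htr2a), 3.21 (Htr5a), 2.32 (Htr4) and 2.23 (Htr7), and the 3 genes without it had 11.0 (Htr1b), 7.54 (Htr6) and 5.24 (Htr1d). The ranges did not overlap, and the medians were 3.21 with H3K27me3 and 7.54 without. Over coding genes the medians were 3.23 with H3K27me3, in 2181 genes, and 4.34 without, in 8641 genes, so coding genes also had the lower median with H3K27me3. The 2 groups of coding genes overlapped, with lower and upper quartiles of 2.55 and 4.12 with H3K27me3 and 3.29 and 5.91 without. Groups of 5 and 3 genes are too small for their separate ranges to be set against this overlap.

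H3K4me3 scores overlapped between the same groups. They ran from 5.86 to 9.01 in the 6 genes with H3K27me3, with a median of 6.72, and from 7.90 to 12.0 in the 3 genes without, with a median of 8.67. Htr5a, with H3K27me3, scored above Htr1d and Htr6. Coding genes had medians of 5.28 with H3K27me3 and 8.23 without. The Pol II scores were 2.16 for Htr2a, with H3K27me3, and 3.28 and 4.11 for Htr6 and Htr1b, without it, beside coding medians of 2.50 and 2.87.

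H3K4me3 and H3K27ac scores went together over the 8 genes with both, with Pearson's r of 0.87 and Spearman's rho of 0.71, given as a description since the genes share 1 library for each antibody. Over 10803 coding genes the coefficients were 0.66 and 0.7. Htr5a stood off that order, with the second H3K4me3 score of the 10 genes (9.01) and the sixth H3K27ac score (3.21). Pearson's r over the 8 genes leans on Htr1b, which had the highest score for both marks (12.0 and 11.0). Coefficients without Htr1b were not computed.

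**Figure D5:**
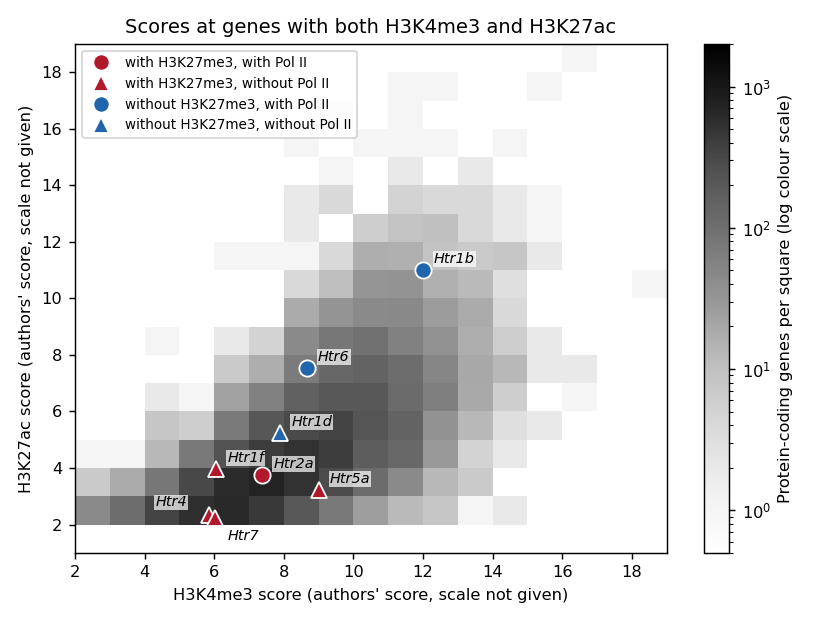
H3K27ac score (vertical axis) against H3K4me3 score (horizontal axis), both in the authors' units, for coding genes with both regions (shading: number of genes, log scale) and for the 8 serotonin receptor genes with both (red with and blue without H3K27me3, circles with and triangles without Pol II). Htr1b lies at 12.0 and 11.0 in the upper right, and the 5 genes with H3K27me3 lie at H3K27ac scores of 3.96 or less.

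The other receptors for amines were 23 dopamine, adrenergic, histamine and muscarinic receptor genes. H3K27ac was listed for 8 of 10 serotonin receptor genes and 11 of these 23, beside 51.5% of coding genes. Among the 50% of regions with the higher scores this higher share was lost, with H3K27ac at 3 of 10 serotonin receptor genes and 9 of 23 others. At that setting H3K27ac was listed for 5493 of 21031 coding genes. H3K4me3 was listed for 9 of 10 and 19 of 23 (68.4% of coding genes), H3K27me3 for 6 of 10 and 15 of 23 (42.5%), and Pol II for 3 of 10 and 9 of 23 (41.7%). H3K4me3, H3K27me3 and H3K27ac without Pol II was found at 4 of 10 serotonin receptor genes and at 1 of 23 others, Adra2b, beside 4.40% of coding genes. H3K4me3 and H3K27me3 stood alone at 1 of 10 serotonin receptor genes and at 7 of 23 others, beside 13.4%. These differences carry no test.

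By subfamily, adrenergic receptor genes had H3K4me3 at 9 of 9 and H3K27me3 at 8 of 9, with H3K27ac at 4 and Pol II at 3. Muscarinic receptor genes had H3K27ac and Pol II at 3 of 5 each and H3K27me3 at 2, and histamine receptor genes had H3K27me3 at 1 of 4. Of the dopamine receptor genes, Drd1 and Drd2, which define the direct and indirect pathway neurons, had regions of all 4 antibodies, as Htr2a did. The Drd1 scores were 6.85 for H3K4me3, 7.78 for H3K27ac and 3.79 for Pol II, with an H3K27me3 score of 3.77 over 38.7 kb, and those of Drd2 were 5.85, 6.38 and 2.44 with 4.53 over 54.2 kb. Htr1b had higher H3K4me3, H3K27ac and Pol II scores than either. Drd3 had no listed region, while Drd4 and Drd5 had H3K4me3 (4.92 and 4.49) and H3K27me3 (4.52 and 11.1) without H3K27ac or Pol II.

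By score profile, measured as the Euclidean distance over the 4 within-list percentiles with 0 for no region, the nearest amine receptor to Htr1b was Adrb1 at 5.88 percentile points, followed by Chrm1 at 11.4. Htr6 lay nearest Adra2c at 14.6 and Chrm1 at 25.0, Htr7 nearest Adra2b at 10.4 and Adrb3 at 13.3, and Htr4 nearest Drd4 at 14.8 and Adra2b at 17.9. A near gene need not hold the same marks, since a low percentile lies close to the 0 of no region. Drd4 and Adrb3 have no H3K27ac region, beside H3K27ac percentiles of 7.52 at Htr4 and 5.55 at Htr7. Adra2c has an H3K27me3 region, at percentile 5.75, that Htr6 lacks. Htr1a lay nearest Adra2a at 9.80 and Adrb3 at 22.1. Htr1f lay at 5.24 from Hrh2, which has no H3K27me3 region, because the percentile of 3.02 at Htr1f is close to the value given to no region, and at 48.7 from Adra1a. Htr2a lay nearest Adra1a at 26.0 and Hrh2 at 34.9, Htr5a nearest Adra1a at 20.2 and Chrm3 at 53.4, and Htr1d nearest Hrh2 at 34.5 and Hrh3 at 59.9. Htr2b shared the absence of any region with Chrm2, Chrm5 and Drd3.

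Of 4 further serotonin receptor genes, Htr2c, a Gq coupled receptor of medium spiny neurons, was the one with H3K27ac and Pol II. Its scores were 7.52 for H3K4me3, 4.77 for H3K27ac and 2.52 for Pol II, with no H3K27me3 region. Htr5b had H3K4me3 at 4.40 and H3K27me3 at 6.59, and Htr3b, a channel subunit, had 2.23 and 3.82. Htr3a, the channel subunit found in a class of interneurons, had H3K27me3 alone, with a score of 4.91 over 71.1 kb.

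Among genes of serotonin synthesis, transport and breakdown, H3K27me3 was listed for 6 of 8, beside 42.5% of coding genes. H3K27ac was listed for 1 of 8, beside 51.5%, and Pol II for 1 of 8, beside 41.7%. Tph1, Tph2 and Ddc, which make serotonin, had H3K27me3 alone, with scores of 5.40, 2.96 and 2.26. Slc6a4, the plasma membrane transporter, had H3K4me3 at 4.69 and H3K27me3 at 5.10, Slc18a2, the vesicular transporter, had 3.86 and 7.86, and Fev, a transcription factor of serotonin neurons, had 5.56 and 10.4. Maoa, a monoamine oxidase, was the gene with the active set, at 8.91 for H3K4me3, 4.82 for H3K27ac and 3.65 for Pol II, and Maob had no listed region.

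The signalling partners of the receptors are read beside the same shares of coding genes, which were 41.7% with Pol II, 51.5% with H3K27ac, 42.5% with H3K27me3 and 68.4% with H3K4me3. All 5 Gi and Go alpha genes had H3K4me3, H3K27ac and Pol II, with H3K27me3 at 2. Of 9 genes for Gs, Golf and adenylyl cyclases, all 9 had H3K4me3 and H3K27ac, 6 had Pol II and 5 had H3K27me3. The combination of Htr4 and Htr7 (H3K4me3, H3K27me3 and H3K27ac without Pol II) was at 3 cyclases, Adcy2, Adcy6 and Adcy8. It was found at 4.40% of coding genes. Of 7 genes for Gq alpha subunits and phospholipase C beta, H3K4me3 was listed for 6, H3K27ac for 4, Pol II for 3 and H3K27me3 for 2. Of 10 genes for receptor partners and desensitisation, H3K4me3 was listed for 10, H3K27ac for 8, Pol II for 5 and H3K27me3 for 5. The combination of Htr4 and Htr7 was also at 2 of these 10, Kcnj3 and Kcnj6. S100a10, a protein that binds HTR1B and HTR4, had H3K4me3 at 4.98 and H3K27me3 at 2.30 without H3K27ac or Pol II, unlike Htr1b itself.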

How the data were processed

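Chromatin of sorted striatal nuclei was immunoprecipitated with 4 antibodies, with 1 library each and 1 input library. Bowtie 0.12.7, MACS 1.4 and build mm9 are named in the submitters' processing notes, with no role given. The deposited lists give regions with a transcript, a gene symbol and a score over input from the authors, and their names state a window of 3 kb around the start site. The scale of the score is not given in the sources used here. Region bounds lay on a 100 bp grid with a narrowest width of 2500 bp, and are printed counted from 1 in mm9.

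Symbols were matched through transcript accessions to a RefSeq table of GRCm38.p6, used for names and promoter sequence only, with 97.4% to 98.0% of accessions matched per list. Any listed region counted as the gene having the mark. Each of the 26 regions of the described genes was listed for no other symbol, and no gene had more than 1 region per list. Htr4 has no window in the promoter table. No test was made, since each antibody has 1 library. Counts of the 10 genes and of each longer list, with all regions kept, stand beside the percent of all coding genes. Counts of receptor subfamilies stand alone, as do most counts under the alternatives below.

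All 10 genes are named, with every dopamine and other serotonin receptor gene, the genes of serotonin metabolism and the 2 most alike amine receptors for each. Genes singled out beyond these (Mbp, Psmd1, Adra2b, S100a10, Kcnj3, Kcnj6, the cyclases and the neighbouring genes) were chosen after their values were seen. The genes and the lists (91 symbols) were chosen with earlier results of these data known. Alternatives were a stricter score, lists of equal length, a minimum width, a minimum overlap and shorter promoter windows. The scripts passed 11 checks on made-up regions. The software was matplotlib 3.10.9, scipy 1.17.1, pandas 2.3.3 and numpy 2.4.6 under Python 3.11.15.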

Additional observations from a re-analysis of the deposited data

How the results depend on the processing

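Keeping the upper 50% of each list by score moved the most. H3K27me3 then stayed listed for 3 serotonin receptor genes (Htr1a, Htr4 and Htr7), H3K27ac for 3 (Htr1b, Htr1d and Htr6) and H3K4me3 with H3K27me3 for 1 (Htr1a), and among the other amine receptors H3K4me3 stayed for 8, H3K27me3 for 11, H3K27ac for 9 and Pol II for 5 of 23. H3K27ac was thus at 3 of 10 serotonin receptor genes and 9 of 23 others. The higher share of serotonin receptor genes in the full lists (8 of 10 and 11 of 23) was lost. H3K27ac was left at 5493 of 21031 coding genes. Apart from the overlap setting, shares of coding genes for the other marks and settings of this section were not computed. With every list limited to its 7799 highest scores, H3K4me3 with H3K27me3 was left at 3 genes (Htr1a, Htr2a and Htr5a). Both settings keep fewer regions by construction. The group with H3K4me3, H3K27me3 and H3K27ac therefore rests on regions of low score: Htr1f for H3K27me3 (2.06), and Htr4 (2.32) and Htr7 (2.23) for H3K27ac, stand close to the lowest listed score of 2.0. Without regions narrower than 5000 bp, H3K27me3 was left at 5 genes, H3K27ac at 6 and Pol II at 2. Requiring an overlap of 0.5 of the narrower region left H3K4me3 with H3K27me3 at 5 genes, without Htr5a. Of the 5091 coding genes with both marks, 35.4% had an overlap smaller than this. Leaving out regions listed for several symbols, or taking the widest region, could not change a value of the 10 genes, since none of their regions is shared and none has more than 1 per list.

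No paired analysis was possible because each antibody has 1 library. Depth is unknown from the lists, so the score below which a region went unlisted cannot be set against the depth of its library.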
